A study of Mus musculus with 2 samples.

Results

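The 35 genes described here serve glucose uptake, glycolysis, lactate handling and the response to low oxygen. They were chosen by symbol, as a list of 21 transporters and glycolytic enzymes and 14 genes of the hypoxia response and of pyruvate use, and all 35 symbols were found among the 32285 features of the gene table. Aldoa was listed under 2 identifiers, of which ENSMUSG00000114515 held 1 UMI in LB and 0 in LBPXRS, so the values below are those of ENSMUSG00000030695. R1, an established line of mouse embryonic stem cells, was profiled cell by cell from droplets, with 1 library for each of the 2 conditions. Both cultures were kept for 72 hours in N2B27, a serum-free medium, with BMP4 and LIF, a cytokine known to maintain pluripotency. LB held these factors alone. LBPXRS also held PD0325901, an inhibitor of MEK in the ERK pathway, Xav939, an inhibitor of tankyrase in the WNT pathway, SB431542, an inhibitor of the activin and NODAL receptors, and Resorcyclic lactone, for which no target is stated. The substrate was gelatin for LB and fibronectin for LBPXRS, so the medium and the substrate cannot be told apart.

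Glycolysis splits glucose into pyruvate, which is either reduced to lactate and exported or oxidised in mitochondria. When oxygen is low, prolyl hydroxylases of the Egln family stop marking the HIF transcription factors for destruction, and HIF raises many genes for glucose transport, glycolysis and lactate export together with genes that hold pyruvate out of the mitochondria. In pluripotent cells the balance between glycolysis and respiration is known to differ between the naive and the later, primed state.

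LB gave 1783 kept cells with a median of 25418 UMIs (unique molecular identifiers, 1 per captured RNA molecule) and LBPXRS 2705 kept cells with a median of 19058. Of the deposited barcodes, 10 occurred in both libraries. With 1 library per condition no difference between conditions has a replicate check, no test was possible, and every interval is a 95% interval for counting error only. Pou5f1, a factor that defines pluripotent cells, stood at 719 CPM (UMIs per 1e+06 UMIs of the library) in LB and 990 CPM in LBPXRS. The 5 fibroblast markers summed to 14.1 CPM in LB and 4.51 CPM in LBPXRS, where Col1a2 and Col3a1 were at 0, and the 5 primitive endoderm markers to 10.1 and 2.86 CPM. The libraries also stood apart across the genome: 4 Y-linked genes had 2872 UMIs in LB against 1 in LBPXRS, and over genes with at least 10 CPM in either library LBPXRS over LB had a median log2 ratio of -0.61 on chromosome 8, -0.63 on chromosome 11 and -0.17 over all 7661 genes. What part these differences have in the results was not tested. With TMM scaling, which balances the bulk of the genes, the median over all genes was -0.01.

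Promoter sequences are shown for members that stood far apart between the libraries in either direction, since HIF is known to bind the 5 letters ACGTG or GCGTG. Each line gives the 250 bases before a RefSeq transcription start in build GRCm38.p6, written 5′ to 3′ on the gene's strand, with capitals for every match on either strand (CACGT and CACGC are the same letters read on the other strand); CACGTG holds 2 overlapping matches. Slc16a3, Pdk1 and Bnip3 were lower in LBPXRS, and Ak4 and Vegfa were higher.
Slc16a3, chr11:120948817-120949066, plus strand: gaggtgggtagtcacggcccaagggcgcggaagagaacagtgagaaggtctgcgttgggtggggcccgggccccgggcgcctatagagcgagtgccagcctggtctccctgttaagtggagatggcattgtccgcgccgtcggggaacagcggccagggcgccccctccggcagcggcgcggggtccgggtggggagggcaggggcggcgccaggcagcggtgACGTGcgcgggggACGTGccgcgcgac
Pdk1, chr2:71872974-71873223, plus strand: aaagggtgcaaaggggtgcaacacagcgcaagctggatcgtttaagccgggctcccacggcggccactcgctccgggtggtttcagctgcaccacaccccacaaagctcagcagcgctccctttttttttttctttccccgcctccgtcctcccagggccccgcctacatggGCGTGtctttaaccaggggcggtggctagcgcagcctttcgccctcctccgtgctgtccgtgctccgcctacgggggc
Bnip3, chr7:138909507-138909756, minus strand: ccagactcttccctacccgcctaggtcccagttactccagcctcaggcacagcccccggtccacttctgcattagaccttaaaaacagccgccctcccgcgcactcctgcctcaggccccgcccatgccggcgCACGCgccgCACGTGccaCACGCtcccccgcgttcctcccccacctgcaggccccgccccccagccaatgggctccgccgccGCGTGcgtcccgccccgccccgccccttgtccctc
Ak4, chr4:101419039-101419288, plus strand: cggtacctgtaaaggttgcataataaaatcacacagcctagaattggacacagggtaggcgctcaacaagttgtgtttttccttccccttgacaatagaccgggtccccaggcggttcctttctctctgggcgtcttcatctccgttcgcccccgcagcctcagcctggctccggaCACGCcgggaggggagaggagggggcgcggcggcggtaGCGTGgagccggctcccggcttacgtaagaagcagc
Vegfa, chr17:46032378-46032627, minus strand: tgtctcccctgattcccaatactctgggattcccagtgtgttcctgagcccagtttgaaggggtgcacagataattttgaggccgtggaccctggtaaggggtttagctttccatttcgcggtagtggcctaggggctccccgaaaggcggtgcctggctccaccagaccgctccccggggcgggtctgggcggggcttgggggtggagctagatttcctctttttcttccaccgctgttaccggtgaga

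A promoter window was given for 32 members, not for Slc2a3, Ndrg1 and Ero1l. A match lay in at least 1 window of 29 of these 32 members (90.6%), against 41.5% of all 27025 genes with a window and 65.2% of the 6173 genes among them that were read here at 10 CPM or more in either library. Members that were at least 2-fold lower in LBPXRS held one in 11 of 12 cases, those at least 2-fold higher in 3 of 3, and the remaining members in 15 of 17. Members of both directions thus held the letters. A match is a description of the sequence and not a bound site, and the Vegfa window above, without a match, is 1 of the 2 listed for that gene, of which the other held 2 matches. Pdk1 also has 2 windows, and the one not shown held 0 matches. Ak4 has 4 windows, each with 2 matches.

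Levels were compared as log2((CPM in LBPXRS + 1)/(CPM in LB + 1)), where the added 1 understates the change of low genes. Of the 35 members, 33 reached 10 CPM in at least 1 library, and Pfkfb3 and Ndrg1 did not. Of the 33, 12 were at least 2-fold lower in LBPXRS, beside 10.4% of all genes (794 of 7661), and 3 were at least 2-fold higher, beside 7.98% (611 of 7661). Of the 12 lower members, 5 lay on chromosomes 8 and 11 (Egln1, Ankrd37, Slc16a3, P4ha2 and Aldoc), which were all 5 members there, and 22.7% of the 1162 genes of these chromosomes were lower by the same rule. Of the 28 members on other chromosomes that reached 10 CPM, 7 were lower and 3 higher, beside 8.16% and 8.65% of the genes outside chromosomes 8 and 11. The 33 members that reached 10 CPM had a median log2 ratio of -0.58, but 6 reached it in LB alone and 3 in LBPXRS alone, so these had to differ. Among the called members, Slc16a3, Bnip3, Egln1, Egln3 and P4ha2 reached it in LB alone, and Hk1 and Vegfa in LBPXRS alone. The counts of calls include them, and the same limit holds where they are described below. All 35 members together also had a median of -0.58, with 24 below 0 and 11 above it, and 60.4% of all genes at 10 CPM were below 0. After subtraction of the median over all genes, a choice made after seeing the data, 4 members were at least 2-fold higher and 9 lower, so that higher members were 30.8% of the calls in place of 20%. Under the same centring 10.4% of all genes were higher and 7.61% lower. The calls of Aldoc, Pkm and Ankrd37 were lost by it, and Ldhb was gained. The counting interval of the ratio lay below 1 for 23 members, above 1 for 7, and included 1 for Hk2, Pfkm, Pfkp, Pdk3 and Ndrg1. Over all genes at 10 CPM it lay below 1 for 54.5% and above 1 for 34.4%.

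**Figure D1:**
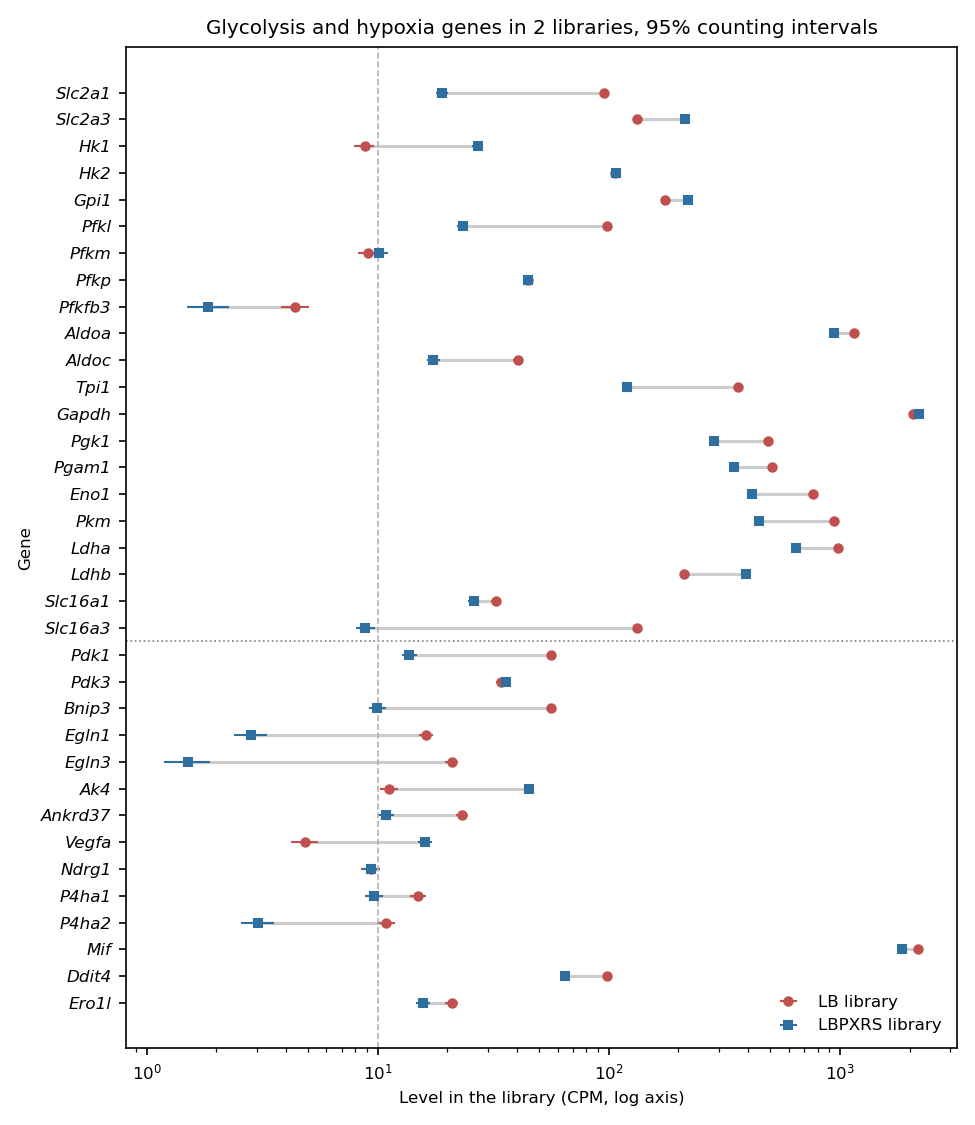
Level of each member in the LB library (circles) and the LBPXRS library (squares), in CPM on a log axis, with 95% counting intervals; the dashed line marks 10 CPM and the dotted line separates transporters and enzymes from hypoxia and pyruvate genes. The widest gaps are those of Slc16a3 (133 against 8.84 CPM) and Egln3 (20.9 against 1.505 CPM), while Gapdh, Hk2 and Pfkp nearly coincide.

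The 2 glucose transporters of the list went opposite ways. Slc2a1 (ENSMUSG00000028645), which encodes GLUT1, the transporter of most growing cells, had 95.3 CPM in LB (92.4 to 98.1) against 19.0 CPM in LBPXRS (17.8 to 20.2), 5.02-fold lower (4.68 to 5.38). Slc2a3 (ENSMUSG00000003153), which encodes GLUT3, a transporter with high affinity for glucose, had 132 CPM in LB (129 to 135) against 214 CPM in LBPXRS (210 to 218), 1.62-fold higher (1.57 to 1.67). The share of the pair's UMIs from Slc2a1 was therefore 41.9% in LB (41.0 to 42.9) against 8.15% in LBPXRS (7.67 to 8.65). A UMI count is not scaled for how well a transcript is captured, so such shares are compared between libraries and give no order of the 2 genes.

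Among the enzymes that trap glucose and commit it to glycolysis, the inducible hexokinase Hk2 stood at 107 CPM in both libraries, while Hk1 (ENSMUSG00000037012), the hexokinase of most adult tissues, had 8.77 CPM in LB (7.93 to 9.68) against 27.0 CPM in LBPXRS (25.7 to 28.5), 3.08-fold higher. Phosphofructokinase, the committed step, has 3 subunit genes, of which 1 differed by at least 2-fold. Pfkl (ENSMUSG00000020277), the liver-type subunit, had 97.8 CPM in LB (94.99 to 101) against 23.3 CPM in LBPXRS (22.0 to 24.7), 4.20-fold lower. Pfkp, the platelet-type subunit, had 44.7 CPM in LB and 44.6 CPM in LBPXRS, and Pfkm, the muscle-type subunit, 9.06 and 10.2 CPM. Pfkl thus took 64.6% of the family's UMIs in LB (63.4 to 65.7) against 29.8% in LBPXRS (28.4 to 31.3). Pfkfb3, which makes the activator of phosphofructokinase, was low in both libraries, at 4.40 CPM in LB and 1.85 CPM in LBPXRS. Gpi1, which precedes this step, had 175 and 221 CPM.

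The enzymes below that step were mostly lower in LBPXRS, by unequal amounts. Tpi1 (ENSMUSG00000023456), which interconverts the triose phosphates, stood apart with 362 CPM in LB (356 to 367) against 119.7 CPM in LBPXRS (117 to 123), 3.02-fold lower. Pkm, the pyruvate kinase, was 2.12-fold lower, at 942 and 444 CPM, Eno1 1.84-fold lower, at 767 and 417 CPM, Pgk1 1.72-fold lower, at 489 and 285 CPM, and Pgam1 1.45-fold lower, at 505 and 348 CPM. Of the aldolases, Aldoa stood at 1151 and 942 CPM and Aldoc, the brain-type enzyme, at 40.3 and 17.4 CPM, 2.32-fold lower. Gapdh went against this order, with 2065 CPM in LB and 2188 CPM in LBPXRS. A pathway of consecutive steps was thus not shifted by 1 common factor. Gapdh, Aldoa, Eno1, Pgk1, Ldha, Tpi1, Pkm, Pgam1 and Mif have near-identical copies elsewhere in the genome, and reads shared with such copies are commonly left out of counting, so their values are uncertain to that extent; the copy Eno1b had 338 UMIs in LB against 192 in LBPXRS.

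At the pyruvate to lactate step the 2 subunits of lactate dehydrogenase went opposite ways. Ldha (ENSMUSG00000063229), whose enzyme favours lactate formation, had 976 CPM in LB (967 to 985) against 644 CPM in LBPXRS (637 to 651). Ldhb (ENSMUSG00000030246), whose enzyme favours the way back to pyruvate, had 211 CPM in LB (207 to 215) against 392 CPM in LBPXRS (387 to 398), 1.86-fold higher. Ldhb took 17.8% of the pair's UMIs in LB (17.5 to 18.1) against 37.8% in LBPXRS (37.4 to 38.2). The lactate exporter Slc16a3 (ENSMUSG00000025161), also called MCT4 and annotated at chr11:120948480-120960868, showed the largest log2 ratio in size of all members, -3.76. Its 6033 UMIs in LB came to 133 CPM (129 to 136), and its 458 UMIs in LBPXRS to 8.84 CPM (8.05 to 9.68), 15.01-fold lower (13.6 to 16.5). The other monocarboxylate carrier, Slc16a1, had 32.4 and 26.0 CPM, so Slc16a3 made up 80.4% of the pair's UMIs in LB (79.4 to 81.3) against 25.4% in LBPXRS (23.4 to 27.5).

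**Figure D2:**
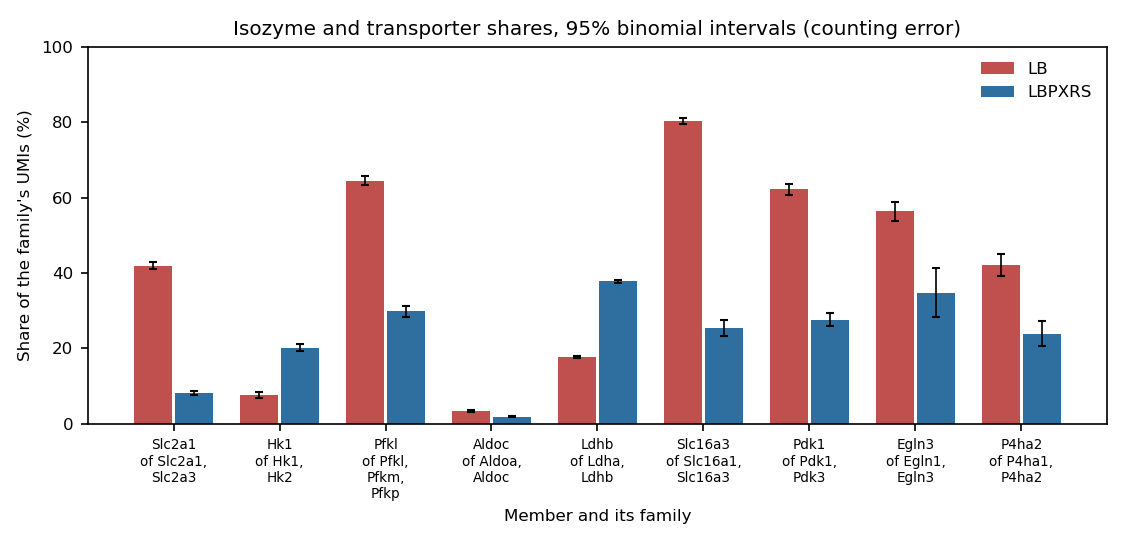
Share of a gene family's UMIs taken by 1 named member in LB and LBPXRS, in percent, with 95% binomial intervals. Slc2a1, Pfkl, Slc16a3 and Pdk1 took a smaller share in LBPXRS, and Hk1 and Ldhb a larger one.

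Among the hypoxia genes, Pdk1, Bnip3, Egln1 and Egln3 were at least 2-fold lower in LBPXRS, and Pdk3 was not. Pdk1 (ENSMUSG00000006494), a kinase that shuts off pyruvate dehydrogenase, had 56.5 CPM in LB (54.3 to 58.7) against 13.7 CPM in LBPXRS (12.7 to 14.7), 4.13-fold lower, while its relative Pdk3 had 34.3 and 35.8 CPM. Bnip3 (ENSMUSG00000078566), a mitochondrial outer membrane protein that promotes mitophagy, had 56.4 CPM (54.2 to 58.6) and 9.97 CPM (9.13 to 10.9), 5.66-fold lower. Of the oxygen-sensing hydroxylases, Egln1 and Egln3 are members and were lower. Egln2, which is not a member, had 54.2 and 41.1 CPM, within 2-fold. Egln3 (ENSMUSG00000035105) had 950 UMIs in LB (20.9 CPM) and 78 in LBPXRS (1.505 CPM), 13.9-fold lower (11.01 to 17.7). Egln1 (ENSMUSG00000031987) had 736 and 147 UMIs, 16.2 and 2.84 CPM, 5.70-fold lower (4.77 to 6.86). Both genes are themselves known HIF targets.

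Of the collagen prolyl hydroxylase subunits, P4ha2 was lower in LBPXRS, at 10.9 and 3.03 CPM, and P4ha1 1.55-fold lower, at 14.9 and 9.63 CPM. Ankrd37, a small ankyrin protein induced by hypoxia, was 2.13-fold lower, at 23.1 and 10.9 CPM. A pair of the same group were higher. Ak4 (ENSMUSG00000028527), a mitochondrial adenylate kinase, had 11.2 CPM in LB (10.2 to 12.2) against 45.1 CPM in LBPXRS (43.3 to 46.9), 4.04-fold higher. Vegfa (ENSMUSG00000023951), the growth factor of blood vessels, had 4.84 CPM (4.22 to 5.52) and 16.1 CPM (14.998 to 17.2), 3.32-fold higher. The other members lay within 2-fold of each other between libraries: Mif, a cytokine, at 2170.2 and 1852 CPM, Ddit4, an inhibitor of mTORC1, at 97.7 and 64.8 CPM, Ero1l, an oxidase of the endoplasmic reticulum, at 20.9 and 15.6 CPM, and Ndrg1 at 9.34 and 9.36 CPM. The hypoxia genes thus did not share 1 direction.

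Other genes of these pathways came from lists written down together with the members. Their counts stand beside the 10.4% of all genes that were lower and the 7.98% that were higher, and a single gene in a list of 7 or 8 is near those shares. Of 25 further hypoxia genes, 15 reached 10 CPM, and 3 of them were at least 2-fold lower: Fam162a, a mitochondrial HIF target, at 317 and 72.2 CPM, Cited2, which competes with HIF for its coactivator, at 71.9 and 21.2 CPM, and Bhlhe40, a transcriptional repressor, at 18.1 and 5.81 CPM. Gys1, the glycogen synthase, was higher, at 9.96 and 26.3 CPM, and the median of the 15 was -0.54. No gene of the HIF regulator list passed 2-fold among the 4 of 8 that reached 10 CPM, and Hif1a itself had 33.2 and 32.6 CPM. Of 25 further glycolysis genes, 8 reached 10 CPM and 3 were lower, Pgam2, Eno3 and Pgm1, the first 2 of them on chromosome 11. Pgam2 had 14.1 and 5.27 CPM, Eno3 16.8 and 7.58 CPM, and Pgm1 16.2 and 7.33 CPM. Hkdc1, a hexokinase relative chosen after its values were seen, was at 0 UMIs in LB against 217 in LBPXRS. That is 63.5-fold higher against a floor of 3 counts in LB, and the counting interval of the ratio starts at 51.2. In the pyruvate oxidation list, with 8 of 11 genes at 10 CPM, Mpc2, a subunit of the mitochondrial pyruvate carrier, was higher at 45.2 and 105 CPM and Pdp2, a phosphatase that switches pyruvate dehydrogenase on, lower at 19.1 and 8.12 CPM. Of the 7 pentose phosphate genes, Rpe alone passed 2-fold, at 17.1 and 37.9 CPM. Among the genes called in these lists, Bhlhe40, Pgam2, Eno3, Pgm1 and Pdp2 reached 10 CPM in LB alone. Gys1 reached it in LBPXRS alone, so all of these had to differ. The median log2 ratio was -0.03 in the pyruvate oxidation list and -0.54 in the pentose phosphate list, beside -0.17 for all genes.

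The LB culture was a mixture of cell states, so the members were next read within it. From each cell 5000 UMIs were drawn at random (thinning), and a cell was called positive for a marker list when at least 2 of those UMIs came from it. Of 1733 LB cells deep enough, 184 were positive for the naive markers Klf4, Esrrb and Tfcp2l1, 267 for the formative markers Fgf5, Pou3f1 and Dnmt3b, 197 for T, a gene of the primitive streak, 82 for Mesp1, a gene of nascent mesoderm, and 153 for Hand1 or Foxf1, genes of later mesoderm. Classes could overlap: 29 cells were positive for both Mesp1 and Hand1 or Foxf1, and 2 for both T and naive markers. The 11, 8 and 11 cells positive for trophoblast, primitive endoderm and fibroblast markers were too few to describe. Levels in positive cells were set against cells of the same library with no UMI of the list. Cells of 1 library are not replicates, so these values are descriptions without a test.

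In naive marker-positive LB cells Slc2a1, Slc16a3 and Ddit4 were lower than in marker-negative cells. Of 32 members, 6 were at least 2-fold lower in them, beside 8.11% of all genes, and no member was 2-fold higher, beside 3.17%. The 6 were Slc2a1, at 43.3 CPM (37.7 to 49.6) against 109.9 CPM, Slc16a3, at 58.2 CPM (51.6 to 65.4) against 156 CPM, Ddit4, at 41.9 against 115 CPM, Egln3, at 6.19 against 25.7 CPM, Egln1, at 4.33 against 19.99 CPM, and P4ha2, at 3.51 against 13.3 CPM. The last 3 rest on 30, 21 and 17 UMIs in positive cells and reached 10 CPM in the negative cells alone, so they had to differ. Ldha stood at 578 against 1098 CPM. Pdk1, Pfkp and Ldhb went the other way, at 83.2 against 48.1 CPM, 70.6 against 36.0 CPM and 282 against 189 CPM. Over the 32 members 25 were below 0, with a median log2 ratio of -0.31 beside -0.17 for all genes. In formative marker-positive cells Ldhb alone of 30 members passed 2-fold, lower at 113 against 248 CPM, beside 1.47% of all genes lower and 1.59% higher. That count was 0 with a minimum of 1 marker UMI, beside 0.178% of all genes, where Ldhb had a log2 ratio of -0.80. It was 4 with a minimum of 3 (Ldhb, Pfkp, P4ha1 and Ero1l), beside 2.36%. At the minimum of 2, 25 of the 30 members were below 0, with a median log2 ratio of -0.35 beside 0.13 for all genes. Slc16a3 was among the 5 above 0, at 190.1 against 112 CPM.

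In Mesp1-positive cells Egln1 and Egln3 were higher. Mesp1-positive cells had 4 of 33 members at least 2-fold higher, beside 5.26% of all genes, and none 2-fold lower, beside 6.22%. Egln3 stood at 65.2 CPM (53.8 to 78.3) against 18.2 CPM, Egln1 at 42.5 CPM (33.4 to 53.3) against 14.2 CPM, P4ha2 at 31.2 CPM (23.5 to 40.6) against 9.47 CPM, and Vegfa at 13.6 CPM (8.72 to 20.2) against 4.38 CPM. P4ha2 and Vegfa reached 10 CPM in the positive cells alone, so these 2 had to differ. Over the 33 members 28 were above 0, with a median log2 ratio of 0.58 beside 0.09 for all genes, and Aldoa, Pgk1 and Ldha had log2 ratios from 0.88 to 0.93. In these cells the median depth was 20818.5 UMIs, against 26199 in Mesp1-negative cells, and the part of depth was not tested.

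T-positive cells had 2 of 31 members at least 2-fold higher, beside 4.61% of all genes: Ddit4, at 209 against 79.9 CPM, and Ndrg1, a stress-responsive gene, at 19.9 against 7.47 CPM, which reached 10 CPM in the positive cells alone. Pfkp was lower, at 16.2 against 49.4 CPM, beside 4.24% of all genes. The median over the members was 0.47, beside 0.10 for all genes. The median depth of these cells was 23241 UMIs, against 26435 in T-negative cells, and its part in these values was not tested. Hand1- or Foxf1-positive cells had 4 of 31 members higher, beside 8.58%, and 3 lower, beside 5.2%. The higher ones were both glucose transporters, Slc2a1 at 239 CPM (224 to 254) against 76.4 CPM and Slc2a3 at 285 CPM (269 to 302) against 111 CPM, with Egln3 and P4ha2, the latter reaching 10 CPM in the positive cells alone. The lower ones were Pdk1, at 19.4 against 61.6 CPM, Ldhb, at 96.6 against 226 CPM, and Pfkp, at 22.3 against 47.5 CPM. Egln3, which passed 10 CPM in both sets of cells, thus went opposite to Pdk1, Ldhb and Pfkp in these cells. Over the 31 members 20 were above 0, with a median log2 ratio of 0.13 beside 0.20 for all genes. With a minimum of 1 marker UMI the 4 higher members were again called, beside 7.34% of all genes, but of the 3 lower ones Pdk1 alone was, beside 4.56%, with Ldhb at -0.93 and Pfkp at -0.84 on the log2 scale.

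**Figure D3:**
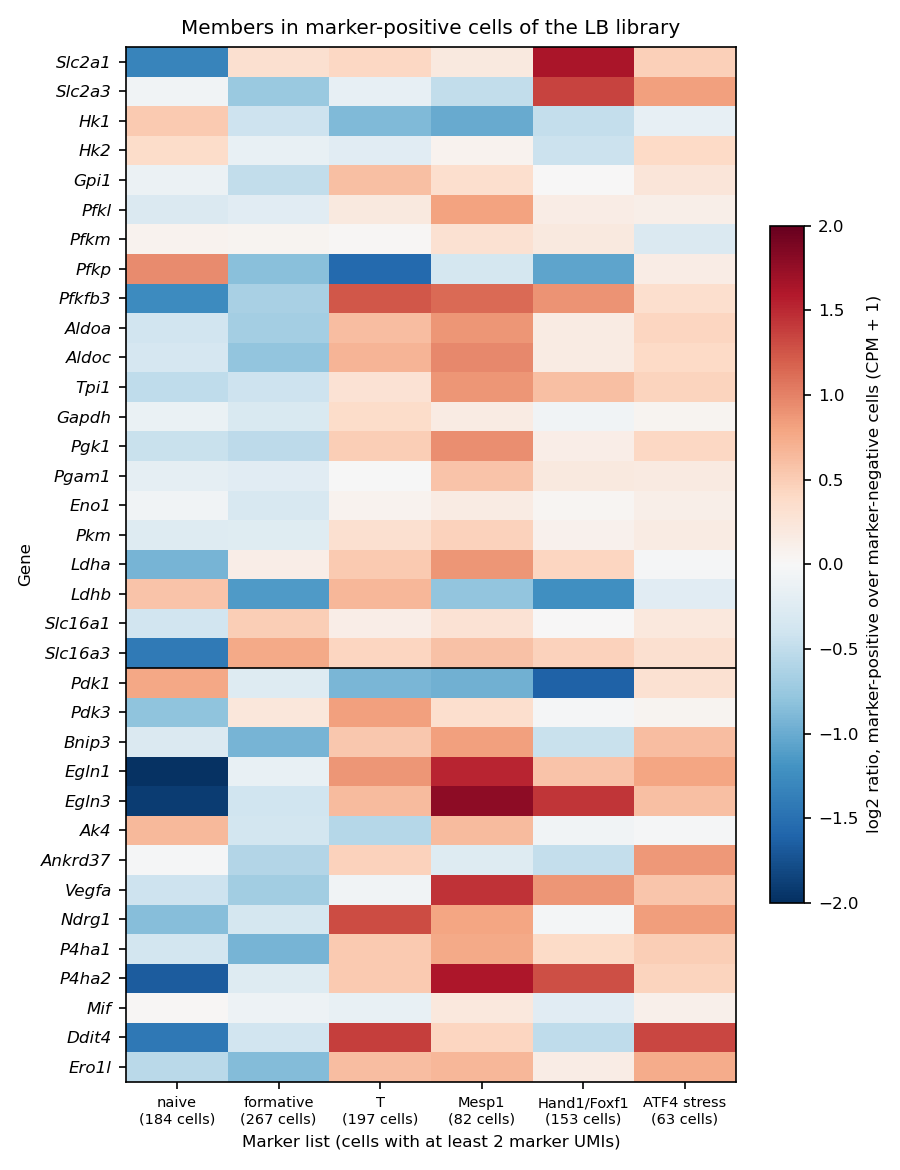
The log2 ratio of each member (rows) between marker-positive and marker-negative cells of the LB library, for 6 marker lists (columns, with the number of positive cells); red is higher in positive cells, blue lower, on a scale from -2 to 2. Egln1, Egln3 and P4ha2 are blue in naive marker-positive cells and red in Mesp1-positive cells, while Pdk1 has the opposite colours.

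Since naive marker-positive cells were 10.6% of LB and 53.0% of LBPXRS cells, the LBPXRS library was also compared with the 184 naive marker-positive LB cells alone. Of 30 members, 7 were then at least 2-fold lower, beside 6.25% of all genes, and 3 higher, beside 8.79%. The 7 were Slc16a3 (log2 ratio -2.59), Pdk1 (-2.52), Bnip3 (-2.16), Pfkl (-1.78), Tpi1 (-1.18), Slc2a1 (-1.15) and Ankrd37 (-1.04), and the 3 higher ones were again Hk1, Ak4 and Vegfa, at 1.18, 1.38 and 1.79. Slc16a3 and Bnip3 reached 10 CPM in these LB cells alone and Vegfa in LBPXRS alone, so these had to differ. Slc16a3 had 58.2 CPM in these LB cells (51.6 to 65.4) and Pdk1 83.2 CPM (75.2 to 91.7), against 8.84 and 13.7 CPM in LBPXRS. A further 5 members no longer met the 2-fold rule. Egln1 and P4ha2 stood at -0.48 and -0.16, with counting intervals of the ratio that included 1, Aldoc at -0.92 and Pkm at -0.86, and Egln3 at -1.52 but with fewer than 10 CPM in both. Ldha and Ddit4 were among the members whose ratio changed sign, from -0.60 to 0.16 and from -0.58 to 0.62. The Ldhb share of lactate dehydrogenase UMIs in these LB cells, 32.8% (31.4 to 34.3), lay nearer the 37.8% of LBPXRS than the 17.8% of all LB cells, whereas their Slc16a3 share of carrier UMIs, 68.6% (63.9 to 73.1), lay nearer that of all LB cells. The genes lower in LBPXRS thus included some that were also at least 2-fold lower in naive marker-positive than in negative LB cells, such as Slc16a3, and Pdk1, which was higher there.

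**Figure D4:**
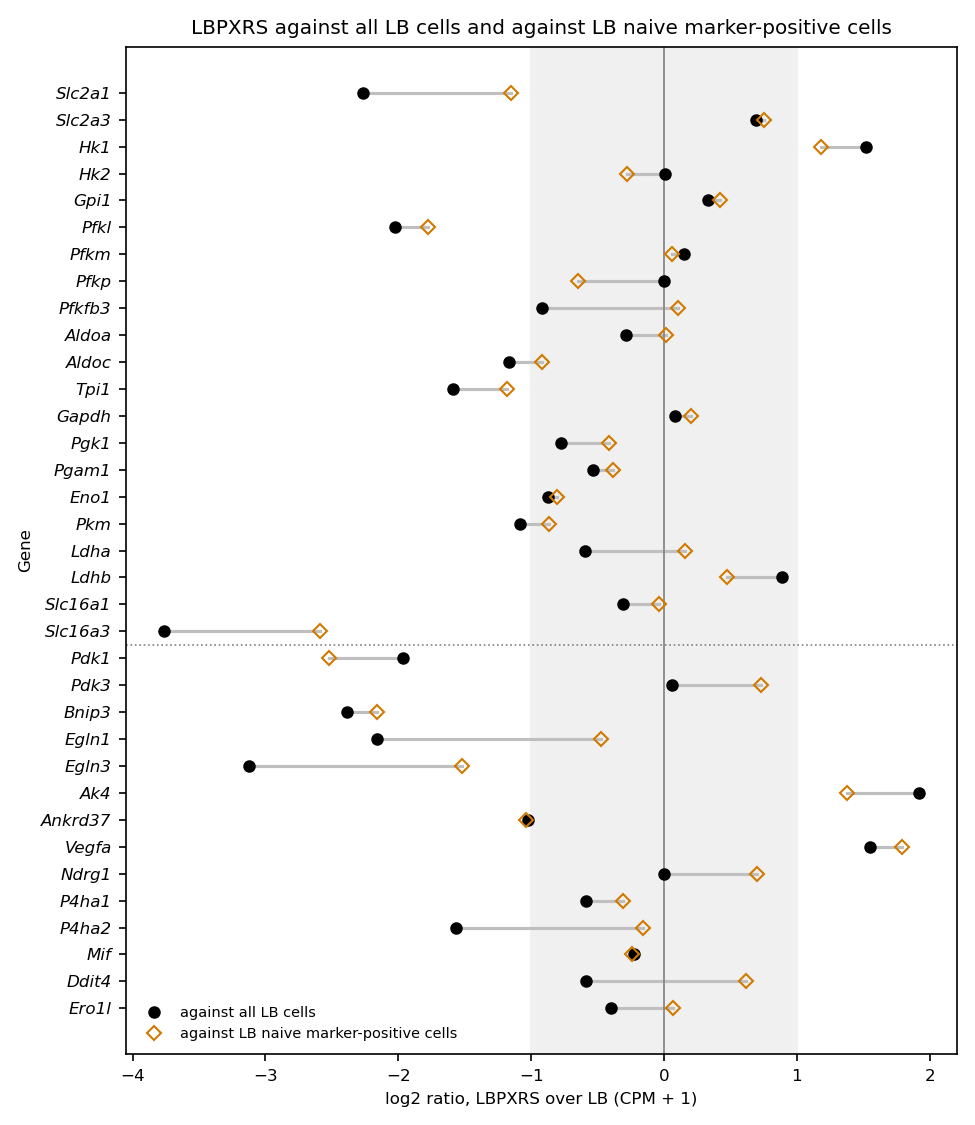
The log2 ratio of LBPXRS to all LB cells (filled circles) and to LB naive marker-positive cells (open diamonds) for each member; the grey band spans ratios within 2-fold. Egln1 and P4ha2 move into the band, while Slc16a3, Pdk1, Bnip3 and Pfkl stay at or below -1.78 in both comparisons.

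The share of cells with at least 1 UMI, after thinning to 5000 UMIs, followed the levels. For Slc16a3 it was 43.4% in LB (41.0 to 45.8) against 4.77% in LBPXRS (3.99 to 5.66), with unthinned values of 79.9% and 15.1%. For Slc2a1 the shares were 31.2% (29.0 to 33.4) against 8.89% (7.83 to 10.04), unthinned 73.3% and 26.5%. Those for Pdk1 were 24.6% (22.6 to 26.7) against 7.33% (6.36 to 8.39), unthinned 63.9% and 22.6%. Ak4 went the other way, at 6.17% (5.09 to 7.41) against 19.4% (17.9 to 20.9), unthinned 21.9% and 48.4%. No cell class here should lack these genes, so the share that free RNA would give was not measured, and the low LBPXRS shares were not corrected for it.

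Relative to their mean, thinned counts of most members varied more across LB cells than across LBPXRS cells. The Fano factor, the variance of thinned counts over their mean, is near 1 for counting alone. Over members with a mean of at least 0.05 thinned UMIs its median was 1.40 in LB (31 members), beside 1.05 over 7109 genes, and 1.15 in LBPXRS (27 members), beside 1.04 over 6750 genes. Where cells differ, the factor tends to rise with the mean. These genes were not matched to the members in mean, and the 2 sets of members are not the same. Of the 24 members at this minimum in both libraries it was higher in LB for 23, beside 61.0% of 6112 genes. Its values were 4.42 for Aldoa, 4.16 for Ldha and 2.96 for Slc2a3 in LB, against 1.80, 1.91 and 1.39 in LBPXRS. Most of the 24 members, Aldoa and Ldha among them, also had the higher thinned mean in LB. Slc2a3 had the larger Fano factor in the library where its level was lower. What part the level has in the Fano difference was not tested.

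Summed over the 21 transporters and enzymes, a LB cell had a median of 37 of its 5000 UMIs (5th percentile 19, 95th percentile 95, highest 220) and a LBPXRS cell a median of 30 (16, 52 and 108). The medians were close, and the libraries parted in the upper tail. At least 60 of 5000 UMIs, a level chosen after the values were seen, was reached by 19.6% of cells in LB (17.8 to 21.6) against 2.14% in LBPXRS (1.62 to 2.77). In LB the enzyme sum went with the sum of the 13 hypoxia genes other than Mif, with a Pearson r of 0.54 across 1733 cells, and in LBPXRS r was 0.01 across 2621 cells; both sums come from the same thinned cell, and the cells of each library share 1 culture and 1 preparation. For single pairs in LB, r was 0.50 for Pkm and Ldha, 0.42 for Slc2a1 and Slc2a3 and 0.38 for Slc16a3 and Ldha, against 0.25, -0.01 and 0.03 in LBPXRS. In LBPXRS Slc16a3 averaged 0.049 and Slc2a1 0.099 thinned UMIs per cell, against 0.77 and 0.53 in LB. The sum of the 13 hypoxia genes averaged 1.19, against 2.15 in LB. Counting error at such low counts pulls r toward 0, so r near 0 in LBPXRS cannot show absence of a relation.

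Depth moved with this tail. The LB cells above the 90th percentile of the enzyme sum (171 cells above 75 UMIs, with 91 cells within 5 UMIs of that value) had a median depth of 17014 UMIs, against 26471 in the other LB cells, and a median mitochondrial share of 2.05%, against 2.77%. They held a mean of 5.02 thinned UMIs of the 13 hypoxia genes, against 1.83. T-positive cells were 23.4% of them (17.3 to 30.5) and 10.1% of the others (8.60 to 11.7), and formative marker-positive cells 4.68% (2.04 to 9.01) and 16.6% (14.8 to 18.5). When LB cells were split into 3 equal groups by depth, r between the enzyme and hypoxia sums was 0.51 in the shallowest, 0.53 in the middle and 0.42 in the deepest cells, and the 95th percentile of the enzyme sum was 123, 74.2 and 70.2. The relation of the 2 sums was thus also present within each depth group, while the tail was longest in the shallowest cells. For Pkm and Ldha r was 0.58, 0.31 and 0.34 in the same LB groups, against 0.30, 0.25 and 0.23 in LBPXRS cells split likewise. The gap between the libraries for this pair was thus widest in the shallowest cells.

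**Figure D5:**
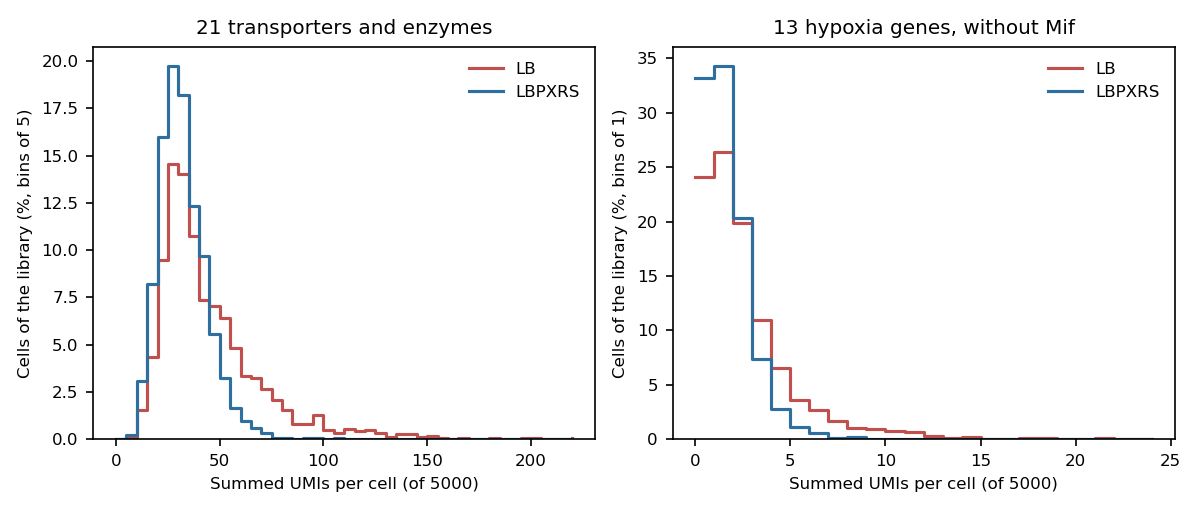
Distribution over cells of the summed thinned UMIs (of 5000 per cell) of the 21 transporters and enzymes (left, bins of 5) and of the 13 hypoxia genes without Mif (right, bins of 1), as the percent of cells of each library. The LB curve has the longer upper tail in both panels, and 24.1% of LB and 33.2% of LBPXRS cells had 0 UMIs of the 13 hypoxia genes.

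Ddit4 and Vegfa are also known targets of ATF4, the factor of the integrated stress response, whose markers Ddit3, Trib3 and Chac1 were at least 2-fold higher in LBPXRS (Ddit3 14.6 against 130 CPM). Cells positive for Ddit3, Trib3, Chac1 or Atf3 were 63 of 1733 in LB and 796 of 2621 in LBPXRS. In LB, Ddit4 alone of 31 members passed 2-fold in positive cells, at 218 CPM (196 to 241) against 85.7 CPM, beside 0.396% of all genes. The median of the 31 was 0.39, beside -0.02 for all genes, and 28 of them were above 0. With a minimum of 1 marker UMI (319 cells) no member passed, beside 0.0972% of all genes higher, and Ddit4 had a log2 ratio of 0.79. In LBPXRS no member of 29 passed it, beside 0.0865% higher and 0.0144% lower of all genes, and Ddit4 and Vegfa had log2 ratios of 0.27 and 0.41. Ak4 had a log2 ratio of -0.49 in the same LBPXRS cells. What part this response has in the difference between the libraries was not tested.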

How the data were processed

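The authors deposited raw UMI counts per gene and barcode, made with Cell Ranger 4.0.0 on build mm10 per the submitters' processing notes and file headers, from 10x 3′ version 2 libraries per the labels' protocols. The annotation and cell calling settings are not given in the sources used here. Chromosomes and gene positions came from GENCODE M21 (GRCm38, the same build), matched by identifier, and promoters from RefSeq.

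Barcodes with under 1000 genes or over 10% mitochondrial UMIs were left out (225 of 2008 in LB, 406 of 3111 in LBPXRS). UMIs were summed per library and scaled to CPM. Poisson and binomial (Clopper-Pearson) intervals are exact and ratio intervals condition on the summed UMIs. Thinning left out 50 LB and 84 LBPXRS cells under 5000 UMIs. Scrublet in scanpy 1.11.5 marked 18 and 10 cells as doublets, which were kept except in an alternative, and it may have missed some. TMM factors came from edgeR 4.0.16. The size rule and the thinning were tested on simulated data. Named genes were all members, isozymes, and genes of the other lists past 2-fold at 10 CPM (at most 5 per direction). The members, lists and markers were chosen with earlier results of these data known.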

Additional observations from a re-analysis of the deposited data

How the results depend on the processing

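Leaving out the cell filter, cells marked by Scrublet or cells with under 0.5% mitochondrial UMIs kept all 15 members called at 2-fold, as did a pseudocount of 0.1 and a CPM minimum of 1, and no called member changed sign in any setting. TMM scaling gave 4 higher and 10 lower members (Pkm and Ankrd37 lost, Ldhb gained), beside 10.2% and 7.8% of all genes, and medians of -0.43 over all members, -0.27 over transporters and enzymes and -0.44 over hypoxia genes, against -0.58, -0.42 and -0.59. Subtracting the median of all genes, chosen after seeing the data, gave 4 higher and 9 lower members, beside 10.4% and 7.61% of all genes. Aldoc, Pkm and Ankrd37 were lost and Ldhb gained. The medians were then -0.41, -0.25 and -0.41, and higher members were 30.8% of the calls in place of 20%. With cells weighted equally Eno1 was gained and the 2 list medians were -0.53 and -0.79, and with a CPM minimum of 1 the enzyme median was -0.54. Naive marker-positive LB cells alone gave 7 lower members and medians of -0.26 over all members and -0.086 over hypoxia genes. Without chromosomes 8 and 11, also chosen after seeing the data, 7 lower members remained, with medians of -0.35 over all members and -0.30 over enzymes.

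A marker minimum of 3 UMIs changed the median of formative marker-positive cells from -0.35 to -0.48, and a minimum of 1 changed it to -0.23 and that of LB stress marker-positive cells from 0.39 to 0.18; at 3 UMIs only 13 such cells were left. T-positive cells had 2 lower members at a minimum of 3 (Pfkp and Pdk1, beside 4.53% of all genes) in place of 1, and 3 higher members at a minimum of 1 (Pfkfb3 gained, beside 3.55%) in place of 2. Naive marker-positive cells had 7 lower members at a minimum of 3 (Ndrg1 gained, beside 9.35%) in place of 6. Mesp1-positive cells had 5 and 6 higher members at minimums of 1 and 3, beside 4.43% and 5.54%, in place of 4. Thinning to 10000 UMIs changed the sign of the share difference for 4 of 35 members, none of them called, and that of the Fano difference for 4 (higher in LB for 32 in place of 30). Over members at the minimum mean in both libraries the Fano factor was then higher in LB for 27 of 30, beside 63.4% of 8133 genes. No paired analysis was possible because each condition had 1 library. Members with few UMIs in a class, such as Egln1 and P4ha2, are limited by depth.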
